A study of Homo sapiens with 18 samples.

Results

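The expression and the acRIP peaks of 9 genes that are mutated, deleted or misregulated in pancreatic cancer were followed in PANC-1 cells with and without knockdown of NAT10. The genes are CDKN2A, CDKN2B, SMAD4, MYC, ARID1A, RNF43, BRAF, PIK3CA and DUSP6, chosen by name and matched from symbol to Ensembl identifier, 9 of the 58302 genes in the expression table. PANC-1 is an established line from a human pancreatic ductal carcinoma. Every group consisted of PANC-1 cells that stably carried a lentiviral hairpin, either the control (shCtrl) or one against NAT10 (shNAT10), and no other agent was named for any group. RNA-seq was available for 3 libraries per group. In acRIP-seq, fragmented RNA is pulled down with an antibody against N4-acetylcytidine (ac4C), and 3 IP and 3 input libraries per group stood behind 1 deposited peak list per group. Which hairpin against NAT10 the libraries carry, and whether the 3 libraries of a group came from separate cultures, is not given in the sources used here, so that p-values may measure technical spread only. All cells descend from 1 cell line.

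In the pancreas, ductal carcinoma is known for the loss of a few tumor suppressors and for constant signaling through the RAS, RAF, MEK and ERK kinase chain. CDKN2A and CDKN2B restrain the cyclin D kinases that inactivate RB, SMAD4 carries TGF-beta signals into the nucleus, ARID1A is a subunit of the SWI/SNF chromatin remodeler, and RNF43 removes WNT receptors from the cell surface. MYC drives growth genes, BRAF and PIK3CA are a kinase of the ERK chain and the catalytic subunit of PI3K alpha, and DUSP6 is a phosphatase that switches ERK off and is itself induced by ERK. NAT10 is the enzyme that writes ac4C on RNA.

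NAT10 checked the labels. Its expression was 31.6, 27.7 and 28.6 FPKM in shCtrl replicates 1 to 3 and 7.92, 8.43 and 7.90 FPKM in shNAT10 replicates 1 to 3, a log2 fold change of -1.84 (SE 0.08, adjusted p = 3.9e-05 in limma). FPKM is a read count scaled to the length of the gene and the total reads of the library. Between 15831720 and 23521762 reads per library stood behind these values. Of 9 genes listed for the carcinoma cells themselves, 8 ductal or epithelial markers and VIM, a mesenchymal one, 9 of 9 reached at least 1 FPKM in both groups, against 0 of 5 acinar, 0 of 4 endocrine, 0 of 5 immune, 0 of 4 endothelial and 1 of 5 fibroblast markers (COL1A1). The summed FPKM of these 9 genes, VIM included, ranged from 3870 to 5142 in shCtrl and from 2797 to 3046 in shNAT10, that of the acinar markers stayed below 0.1 in each library, and the fibroblast sum, mostly COL1A1, was 28.7 to 34.0 in shCtrl and 17.3 to 20.8 in shNAT10. The endocrine sum was at most 0.344 FPKM in shCtrl and 0.0832 in shNAT10, the immune sum at most 0.137 and 0.0795, and the endothelial sum at most 0.651 and 0.409. In bulk RNA, fewer cells of a type and less RNA per cell cannot be told apart. The control library of replicate 2 stood apart: the 3238 genes with the longest transcripts lay at a median of -0.28 on the log2 scale from the other control libraries, and the same genes lay between -0.02 and 0.21 in the remaining 5 libraries.

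CDKN2A and CDKN2B were at or near 0, and the other 7 of the 9 genes reached at least 1 FPKM in all 6 libraries and were tested. Among the 7, ARID1A was higher and DUSP6 was lower in shNAT10 at an adjusted p under 0.05, and 5 did not pass the test. Of the 12982 genes tested, 20.8% were called higher and 21.2% lower, and 1 of 7 in each direction is no larger a share than that. At an unadjusted p under 0.05, 1 driver gene was higher and 3 were lower. With a log2 fold change beyond 1 as a further condition, limma called 0 driver genes in either direction, also with voom on recovered reads, against 2.91% of all tested genes higher and 3.57% lower, and 0 had an unadjusted p under 0.05 beyond that fold. The groups did not overlap for 2 genes that lay higher in shNAT10 (ARID1A and RNF43) and 3 that lay lower (MYC, SMAD4 and DUSP6), against 27.9% and 28.6% of all tested genes. The median log2 fold change of the 7 was -0.14, beside -0.01 over all tested genes. The acRIP lists held 14 peaks on 7 of the 9 genes in shCtrl and 11 peaks on 6 of the 9 in shNAT10. Without the control library of replicate 2, limma called 3 driver genes lower (BRAF, PIK3CA and DUSP6) and ARID1A higher.

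**Figure D1:**
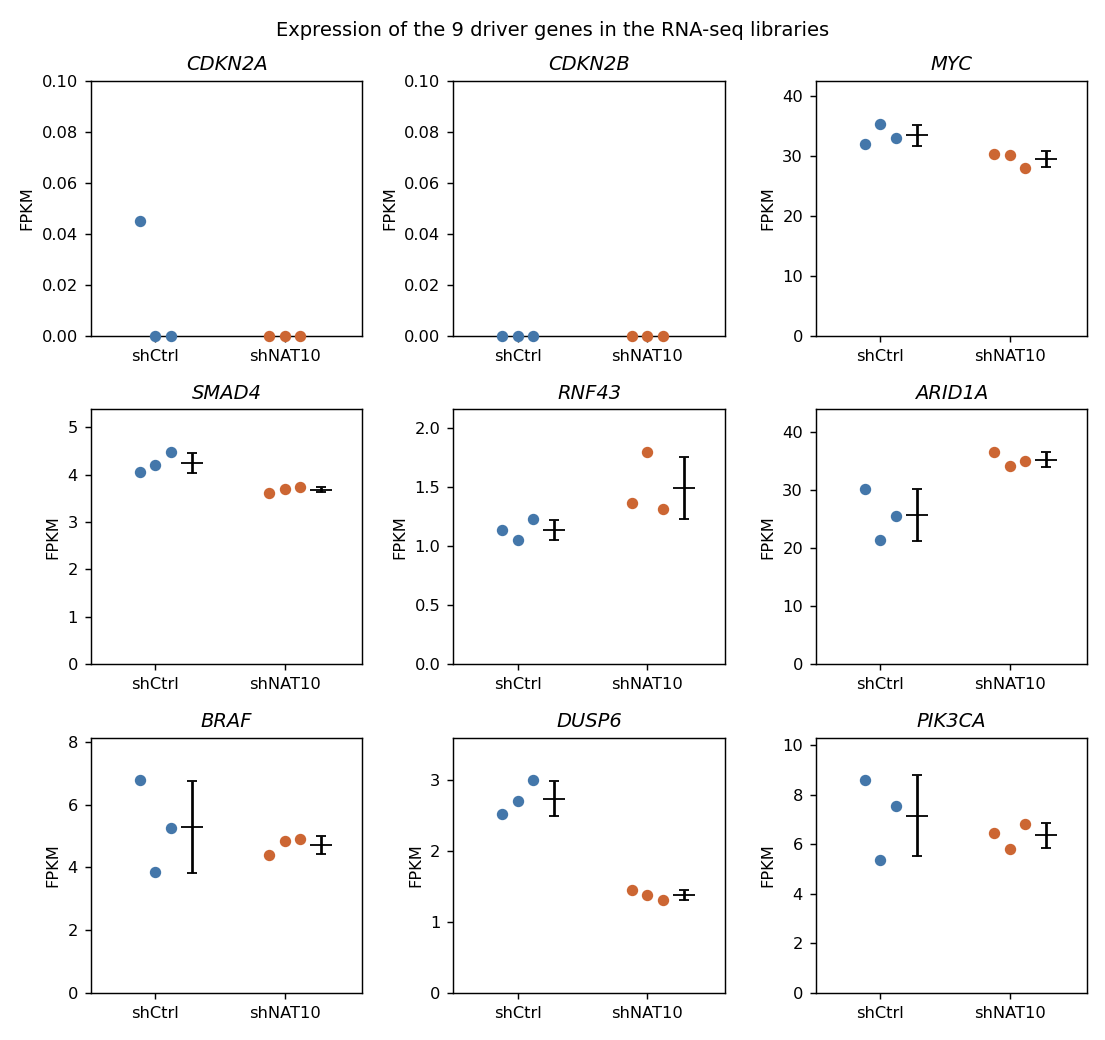
FPKM (vertical axis, linear, from 0) of the 9 driver genes in the 3 shCtrl (blue) and 3 shNAT10 (orange) RNA-seq libraries, 1 point per library in replicate order, with mean and SD as black bars for the 7 expressed genes. The groups are apart for MYC, SMAD4, RNF43, ARID1A and DUSP6 and overlap for BRAF and PIK3CA, while CDKN2A and CDKN2B lie at or near 0.

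FPKM is scaled to a gene length, inferred here to be mostly that of the longest transcript, and the order of levels between genes depends on that length and, for RNF43, on exons shared with other genes. In shCtrl the order of mean FPKM was MYC (33.5), ARID1A (25.7), PIK3CA (7.16), BRAF (5.29), SMAD4 (4.24), DUSP6 (2.74) and RNF43 (1.14). The ranges of PIK3CA and BRAF, and of BRAF and SMAD4, overlapped in shCtrl, and all other neighbours down to RNF43 were apart. In shNAT10 the order at the top turned, with ARID1A at 35.3 and MYC at 29.6 and no overlap between their libraries, and DUSP6 (1.38) and RNF43 (1.496) overlapped at the bottom. Among the mean FPKM of all tested genes MYC stood at percentile 85.1, ARID1A at 84.5 and RNF43 at 6.66.

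CDKN2A (ENSG00000147889, chr9:21967753-21995301, minus strand, GRCh38) encodes the INK4 protein p16 and, in another reading frame, ARF. Its FPKM was 0.0449 in shCtrl replicate 1 and 0 in the other 5 libraries, and the value in replicate 1 corresponded to 1 read. CDKN2B (ENSG00000147883, chr9:22002903-22009363, minus strand), which encodes the related inhibitor p15, was at 0 in all 6 libraries. A count of 0 allows up to 3 reads, which per library would be 0.0994 to 0.148 FPKM for CDKN2A and 0.0326 to 0.0485 FPKM for CDKN2B, counting error only. Neither gene passed the filter, and no fold change can be given.

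The genes around them on 9p21 were described from a list of neighbours. In chromosome order, the 5 listed genes from MTAP through CDKN2A-DT, CDKN2A and CDKN2B-AS1 to CDKN2B stayed below 0.1 FPKM in each of the 6 libraries. The stretch from the start of MTAP to the end of CDKN2B measures 206.8 kb (chr9:21802543-22009363), and CDKN2B-AS1 runs on to base 22121097. Over the 5 genes 23 reads were counted among 114057131. Of these reads, 22 lay on MTAP, the methylthioadenosine phosphorylase gene, at 0.0136 to 0.0381 FPKM. The flanks were transcribed. On one side IFNE, an epithelial interferon gene, had 0.836 to 1.13 FPKM in shCtrl and 0.642 to 0.920 in shNAT10, and KLHL9, a ubiquitin ligase adaptor, had 5.28 to 7.22 and 5.02 to 5.30. On the other side DMRTA1 had 0.414 to 0.611 FPKM in shCtrl and 0.249 to 0.457 in shNAT10, and the non-coding gene LINC01239 had 1.33 to 1.596 and 1.45 to 1.74. Further out, MLLT3 lay at 1.24 to 1.61 FPKM in shCtrl and 1.35 to 1.55 in shNAT10, and TUSC1 at 1.35 to 1.66 and 1.07 to 1.72. FOCAD lay at 5.84 to 6.94 FPKM in shCtrl and 8.08 to 9.24 in shNAT10. HACD4 stayed at or below 0.0697 FPKM, and IFNB1, ELAVL2 and IZUMO3 were at 0 in every library, so low values were not confined to the stretch around CDKN2A. Whether DNA of this stretch is present cannot be told from RNA, and copy number was not tested. Of the 14 neighbours, 5 were tested, and FOCAD alone was called, higher by 0.38 on the log2 scale (SE 0.10, adjusted p = 0.020 in limma), a call lost without knockdown replicate 1 or 3 and with no filter on expression. At an unadjusted p under 0.05, 1 neighbour was lower, and 0 were called lower by limma or voom.

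**Figure D2:**
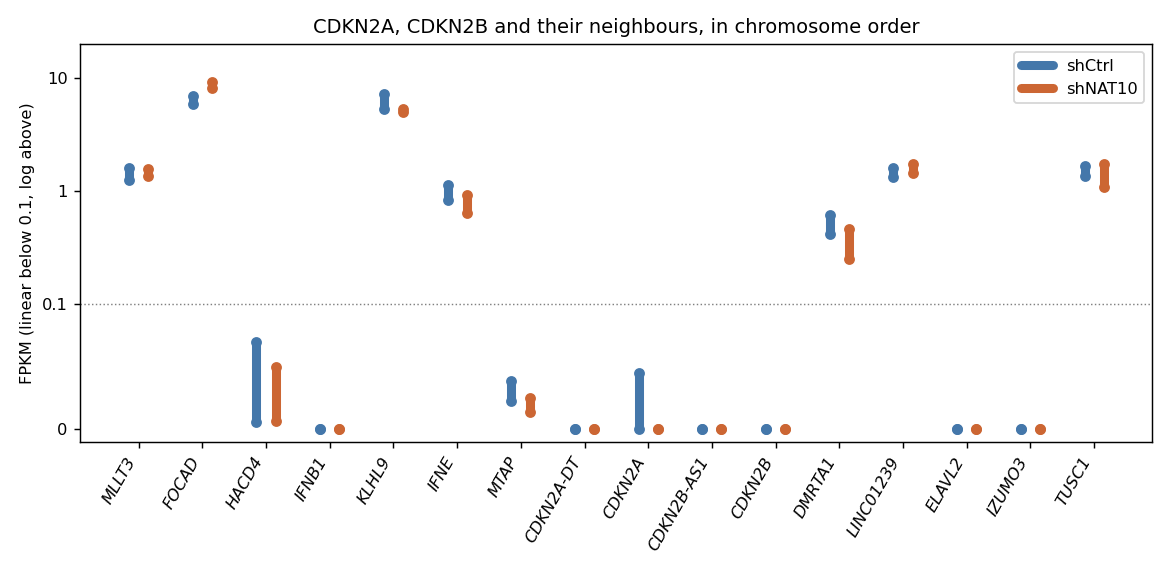
FPKM of CDKN2A, CDKN2B and 14 listed neighbours in order along chromosome 9 (vertical axis linear below 0.1 and logarithmic above), with dots at the lowest and highest of 3 libraries per group and a bar between them. From MTAP to CDKN2B no library reached 0.1 FPKM, while IFNE, KLHL9, DMRTA1 and LINC01239 on both sides did.

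Peaks were listed on CDKN2A all the same. The shCtrl list held 2 peaks on CDKN2A, with fold enrichments of 82.9 and 310, and the shNAT10 list held none. CDKN2B had no peak in either list. Fold enrichment is the ratio of IP to input signal given with each peak, without replicates, and no test can be made of it. The first CDKN2A peak fell in the coding sequence of 8 of the 10 coding transcripts that cover its midpoint. The second spanned an intron at chr9:21968171-21968652, with 150 exon bases in the 3′ UTR of the 1 coding transcript that covers its midpoint. Peaks on genes without RNA-seq signal were not particular to CDKN2A. The paper's methods describe captured mRNA for the RNA-seq libraries, and fragmented total RNA with ribosomal sequences removed for acRIP and input. The effect of this difference was not tested. In shCtrl 1640 peaks (9.71% of the list) and in shNAT10 1574 peaks (9.95%) lay on genes with a mean below 0.1 FPKM in both groups. Their median fold enrichment was 288 and 267.5, beside 49.3 and 45.2 in the whole lists. On 9p21, MTAP carried 2 peaks and HACD4 1 peak in shNAT10, and ELAVL2 carried 2 in shCtrl. The reads behind these peaks were not analysed here.

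CDKN2A and CDKN2B act on an axis whose other genes were expressed. Of 16 listed genes of the INK4, cyclin D and RB axis, 15 were tested, 6 were called higher, 5 lower and 4 did not pass, with a median log2 fold change of -0.0049. Over all tested genes 20.8% were called higher and 21.2% lower, and neither this list nor those below were tested against these shares. RBL1, an RB relative, rose by 1.34 (SE 0.14, adjusted p = 0.00058 in limma), CDK6, a cyclin D kinase, rose by 1.21 (SE 0.23, adjusted p = 0.0061), and E2F1, the factor RB holds back, rose by 0.90 (SE 0.11, adjusted p = 0.00091). CDK6 was at 11.8, 5.88 and 8.79 FPKM in shCtrl and at 19.9, 18.2 and 21.3 in shNAT10, again with control replicate 2 the lowest. The largest falls were those of the CDK inhibitor CDKN1A, from 43.4, 50.3 and 46.2 to 13.8, 14.6 and 15.2 FPKM (log2 -1.67, SE 0.08, adjusted p = 5.0e-05 in limma), of cyclin D1 (CCND1), by 1.26 (SE 0.06, adjusted p = 4.4e-05), and of the CDK inhibitor CDKN1C, by 0.94 (SE 0.17, adjusted p = 0.0052). CDK4, the other cyclin D kinase, had a log2 fold change of -0.14 (adjusted p = 0.26 in limma).

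SMAD4 (ENSG00000141646, chr18:51028394-51085045, plus strand), the common partner of the receptor-regulated SMADs, was at 4.06, 4.19 and 4.47 FPKM in shCtrl and at 3.62, 3.70 and 3.73 FPKM in shNAT10. All 3 knockdown libraries lay below all 3 control libraries, by a small margin. The log2 fold change on the scale of log2(FPKM + 0.1) was -0.20 (SE 0.08, 95% interval -0.40 to -0.00020) and did not pass the test (adjusted p = 0.098 in limma; exact two-sided permutation p = 0.1, the smallest that 3 against 3 libraries allow). Of its exon bases, 7.37% are shared on the same strand with AC091551.1.

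SMAD4 carried acRIP peaks in both groups, at different places. In shCtrl the single peak lay in the coding sequence, 181 bases over 3 exons with a fold enrichment of 15.5. In shNAT10 there were 2, a peak at the end of the coding sequence (chr18:51078304-51078484, fold enrichment 59.2) and one in the 3′ UTR (chr18:51081270-51081450, fold enrichment 702). None of the 3 shared a base with a peak of the other group. The sequence under the shCtrl peak is shown because it is the only SMAD4 stretch in that list, with capitals on its longest run of the pattern CNN, a C followed by any 2 bases, which is the kind of motif searched for in ac4C peaks.
SMAD4 peak in shCtrl, chr18:51054954-51058360 without introns, plus strand, GRCh38: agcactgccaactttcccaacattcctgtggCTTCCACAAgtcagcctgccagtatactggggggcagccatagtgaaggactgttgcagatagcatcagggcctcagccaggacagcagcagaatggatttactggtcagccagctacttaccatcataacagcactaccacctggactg

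Of 21 TGF-beta and SMAD genes, 20 were tested, with 5 called higher, 7 lower and a median log2 fold change of -0.16. The SMAD repressor SKI rose by 0.89 (SE 0.06, adjusted p = 0.00015 in limma), the type I receptors TGFBR1 by 0.84 (SE 0.11) and ACVR1B by 0.55 (SE 0.08). The inhibitory SMAD6 fell by 1.06 (SE 0.11, adjusted p = 0.00061 in limma), the activin receptor ACVR2A by 0.87 (SE 0.13) and the matrix protein gene CCN2 by 0.79 (SE 0.06).

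MYC (ENSG00000136997, chr8:127735434-127741434, plus strand), a transcription factor of growth and ribosome genes, was the highest of the 9 in control cells. It was at 32.1, 35.5 and 33.0 FPKM in shCtrl and at 30.4, 30.2 and 28.1 FPKM in shNAT10. The groups did not overlap, yet the gap between them was smaller than the range within either. The log2 fold change was -0.18 (SE 0.07, 95% interval -0.35 to -0.01), with an adjusted p of 0.077 in limma and an exact permutation p of 0.1. With quantile normalization the adjusted p in limma was 0.039, at a log2 fold change of -0.18.

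The peaks on MYC lay at low fold enrichment. In shCtrl 1 peak covered the end of the 5′ UTR and the start of the coding sequence (transcript bases 406 to 584 of 2366, coding from 526) with a fold enrichment of 3.34, at percentile 5.03 of its list. In shNAT10 there were 2 peaks in the coding sequence, at bases 703 to 970 and, reaching past its end, 1386 to 1920, with 12.1 and 12.6. No base was shared between the groups.

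Of 25 partners and targets of MYC, 25 were tested, with 6 called higher, 5 lower and a median of -0.01. Lower calls numbered 1 without any 1 of the knockdown libraries and 2 without control replicate 3, and higher calls 3 without knockdown replicate 1. The phosphatase CDC25A rose by 0.86 (SE 0.07, adjusted p = 0.00026 in limma), and the MYC antagonists MNT and MXD3 rose by 0.63 (SE 0.07) and 0.43 (SE 0.14). For MXD3 the adjusted p in limma was 0.0498, only just under the limit of 0.05. The antagonist MXD4 fell by 1.07 (SE 0.15, adjusted p = 0.0015 in limma), and the ribosome assembly genes MRTO4 and RRP9 fell by 0.45 (SE 0.11) and 0.40 (SE 0.12). RRP9 was also the listed gene with the pattern most like MYC (Pearson r = 0.99 of log2(FPKM + 0.1) over 6 libraries and 157 listed genes compared, a description that includes the difference between the groups), at 20.8, 27.3 and 21.5 FPKM in shCtrl and 18.3, 18.0 and 16.0 in shNAT10, both being highest in control replicate 2.

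ARID1A (ENSG00000117713, chr1:26693236-26782110, plus strand), the DNA-binding subunit of the BAF form of SWI/SNF, was the only driver gene called higher. It was at 30.2, 21.4 and 25.6 FPKM in shCtrl and at 36.6, 34.2 and 35.1 FPKM in shNAT10. The 3 knockdown libraries lay close together above all control libraries, and control replicate 2 was the lowest of the 6. The mean rose from 25.7 ± 4.404 to 35.3 ± 1.219 FPKM (SD, n = 3 each), a log2 fold change of 0.47 (SE 0.12, 95% interval 0.18 to 0.76, adjusted p = 0.021 in limma, exact permutation p = 0.1), which is 38.3% more. Without control replicate 2 the log2 fold change was 0.34 (adjusted p = 0.0073 in limma). Leaving out control replicate 3 or any 1 of the 3 knockdown libraries took the adjusted p in limma to between 0.057 and 0.076, at log2 fold changes of 0.44 to 0.49.

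On ARID1A each list held 1 peak, and the pair did not overlap. The shCtrl peak lay in the coding sequence (chr1:26779286-26779465, fold enrichment 4.99). The shNAT10 peak lay in the 3′ UTR, its midpoint 182 bases past the last coding base before the stop codon (chr1:26780845-26781025, fold enrichment 4.90). Both were at about the 10th percentile of their lists (10.1 and 11.0). Printed are the coding peak of the control list and, for the 3′ UTR peak, the longest run of CNN found on any peak of the 9 genes, 9 repeats, with the capitals marking the runs.
ARID1A peak in shCtrl, chr1:26779286-26779465, plus strand, GRCh38: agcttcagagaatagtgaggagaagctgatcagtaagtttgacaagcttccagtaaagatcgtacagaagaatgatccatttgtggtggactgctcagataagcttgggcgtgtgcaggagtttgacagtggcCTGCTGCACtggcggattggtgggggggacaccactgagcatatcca
ARID1A run within the shNAT10 peak, plus strand, GRCh38: CTCCTCCTTCCACCTCCCCTCCCTCCA

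Of 27 listed subunits 26 were tested, 13 were called higher, 4 lower and 9 did not pass, with a median log2 fold change of 0.21. The shares over all tested genes were 20.8% higher and 21.2% lower, and the difference was not tested. The count of 13 fell to 8 without control replicate 3 and to 7, 8 and 7 without knockdown replicates 1, 2 and 3. The core subunits SMARCE1 and SMARCC1 rose by 1.00 (SE 0.10, adjusted p = 0.00044 in limma) and 0.85 (SE 0.08), and the accessory subunit BCL7A by 0.86 (SE 0.11). SMARCE1 was at 4.20, 3.65 and 4.23 FPKM in shCtrl and at 7.44, 8.58 and 8.503 in shNAT10. DPF1 and SMARCD3, subunits of neural and muscle forms of the complex, fell by 1.34 (SE 0.11, adjusted p = 0.00025 in limma) and 0.96 (SE 0.14), and DPF2 fell by 0.34 (SE 0.07). The pattern of ARID1A was most like that of its paralog ARID1B (r = 0.996 over 6 libraries), which rose by 0.58 (adjusted p = 0.018 in limma), from 9.22, 6.19 and 7.95 FPKM to 12.2, 10.8 and 11.6.

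RNF43 (ENSG00000108375, chr17:58352500-58417595, minus strand), the ubiquitin ligase that clears Frizzled receptors, had the lowest mean of the 7 in control cells. It was at 1.14, 1.05 and 1.23 FPKM in shCtrl and at 1.37, 1.80 and 1.32 FPKM in shNAT10, from 110 to 195 reads per library. The groups did not overlap, with knockdown replicate 2 well above the other libraries. The log2 fold change was 0.35 (SE 0.19, 95% interval -0.08 to 0.79, adjusted p = 0.165 in limma, exact permutation p = 0.1). These values are uncertain, since 59.5% of its exon bases are shared on the same strand with SUPT4H1 and AC004687.2 and how the counting treated such reads is not given. No acRIP peak was listed on RNF43 in either group, whereas 49.6% of tested genes had one in shCtrl and 47.7% in shNAT10.

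Among 28 genes of WNT receptor turnover and WNT targets 14 were tested, with 3 called higher, 3 lower and a median of -0.12. Without control replicate 2, 5 were called lower. ZNRF3, the paralog of RNF43 with the same task, fell by 0.63 (SE 0.15, adjusted p = 0.016 in limma), from 2.20, 1.80 and 2.20 FPKM to 1.42, 1.25 and 1.21. Of the receptors they act on, FZD4 fell by 1.007 (SE 0.13), FZD6 rose by 0.59 (SE 0.11) and the coreceptor LRP5 fell by 0.59 (SE 0.07). The targets TCF7 and AXIN2 rose by 0.79 (SE 0.11) and 0.65 (SE 0.18, adjusted p = 0.025 in limma). The pattern most like RNF43 was that of the SWI/SNF subunit SS18L1 (r = 0.94), at 6.38, 6.08 and 6.77 FPKM in shCtrl and 7.41, 8.20 and 7.58 in shNAT10.

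**Figure D3:**
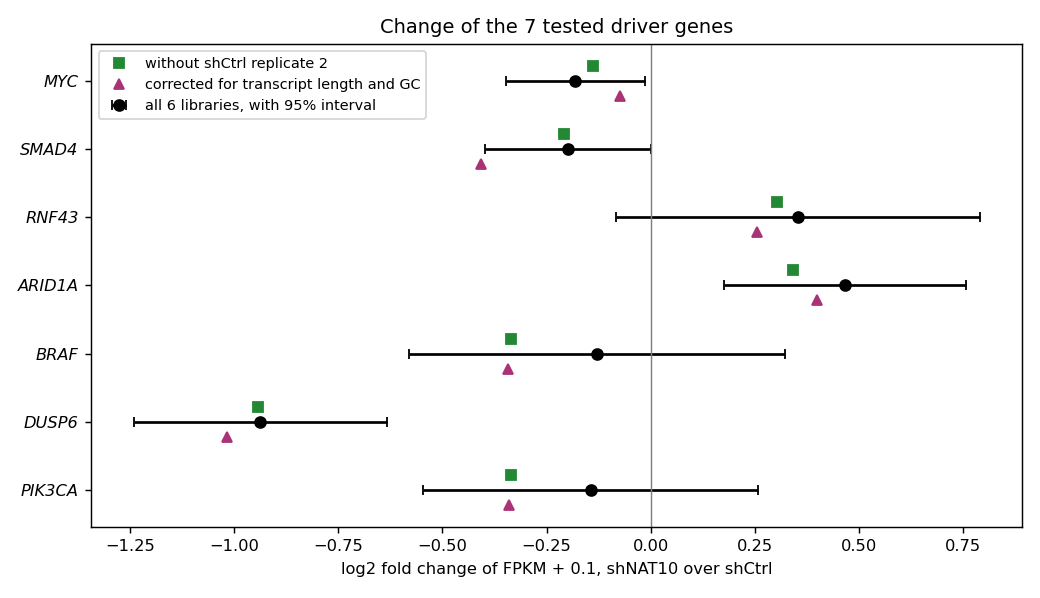
log2 fold change of FPKM + 0.1 between shNAT10 and shCtrl (horizontal axis) for the 7 tested driver genes, as estimated by limma with its 95% interval from all 6 libraries (black), without shCtrl replicate 2 (green squares) and with transcript length and GC content corrected for (purple triangles). DUSP6 stays near -1 in all 3, while BRAF and PIK3CA move from about -0.1 to -0.3.

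BRAF (ENSG00000157764, chr7:140719327-140924928, minus strand), the RAF kinase that phosphorylates MEK, was at 6.77, 3.85 and 5.25 FPKM in shCtrl and at 4.39, 4.84 and 4.90 FPKM in shNAT10. The control libraries enclosed the knockdown libraries, with replicate 1 the highest and replicate 2 the lowest of all 6. The log2 fold change was -0.13 (SE 0.19, 95% interval -0.58 to 0.32, adjusted p = 0.62 in limma, exact permutation p = 0.7). It was 0.064 without control replicate 1 and -0.33 without control replicate 2 (adjusted p = 0.74 and 0.048 in limma). Of the 15 alternatives, 2 called it lower. The longest BRAF transcript holds 40.03% GC. With transcript length and GC content corrected for, an alternative chosen after seeing the data, the log2 fold change was -0.34 (adjusted p = 0.013 in limma).

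The strongest peak on any of the 9 genes lay on BRAF. In shCtrl 3 peaks were listed, with fold enrichments of 119 and 5.70 in the coding sequence and of 2900 in the 3′ UTR (chr7:140721127-140721337, percentile 99.1 of its list). In shNAT10 2 were listed, 136 in the coding sequence and 644 in the 3′ UTR (chr7:140720617-140720857). The 3′ UTR peaks of the groups lay near each other and shared no base. The 3 coding peaks could be fitted on no single coding transcript as 1 unbroken stretch. The shCtrl 3′ UTR peak is represented by its longest run of CNN, 6 repeats, all in capitals.
BRAF run within the 3′ UTR peak in shCtrl, minus strand, GRCh38: CATCCACAACTTCAACTG

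Downstream of BRAF, 8 of 9 listed RAF, MEK and ERK kinases were tested, with 0 called higher, 2 lower and a median of -0.19. At an unadjusted p under 0.05, 1 was higher and 5 were lower, and voom called 0 higher and 3 lower. Lower calls numbered 4 without control replicate 2 and 1 without control replicate 3 or any 1 knockdown library. The scaffold KSR1 fell by 0.48 (SE 0.10, adjusted p = 0.0073 in limma), from 3.76, 3.37 and 3.62 FPKM to 2.48, 2.61 and 2.51, and ERK1 (MAPK3) fell by 0.33 (SE 0.09, adjusted p = 0.024). MEK1 (MAP2K1) had a log2 fold change of -0.19 (adjusted p = 0.075 in limma). BRAF's own pattern was most like that of FBXW7, the ubiquitin ligase subunit that targets MYC (r = 0.98), at 3.93, 2.65 and 3.37 FPKM in shCtrl and 3.03, 3.32 and 3.18 in shNAT10, with the same order of the control libraries.

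DUSP6 (ENSG00000139318, chr12:89347232-89353271, minus strand), the cytoplasmic phosphatase of ERK, was the driver gene with the largest change. It was at 2.52, 2.71 and 3.00 FPKM in shCtrl and at 1.45, 1.38 and 1.31 FPKM in shNAT10, from 192 to 310 and from 101 to 118 reads. The groups were far apart, with little spread in either. The mean fell from 2.74 ± 0.24 to 1.38 ± 0.07 FPKM (SD, n = 3 each), a log2 fold change of -0.94 (SE 0.13, 95% interval -1.24 to -0.63, adjusted p = 0.0016 in limma, exact permutation p = 0.1). In each of the 15 alternatives in which it was tested limma called it lower, with log2 fold changes from -1.02 to -0.65. On the opposite strand, 40.5% of its exon bases are shared with AC024909.2; the library kit marked strand, but the setting of the counting is not given.

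DUSP6 was also the driver gene with the most peaks, 5 in shCtrl and 3 in shNAT10, and the only one with peaks that overlapped between the groups. From 5′ to 3′, the shCtrl peaks had fold enrichments of 4.23 in the 5′ UTR, 1070 and 485 in the coding sequence and 80.2 and 38.8 in the 3′ UTR. The shNAT10 peaks had 5.80 in the 5′ UTR, 45.2 at the start of the coding sequence and 172 in the 3′ UTR. The shNAT10 peak at the start of the coding sequence shared 31 bases with the first and 60 bases with the second shCtrl peak, and the 3′ UTR peaks shared 181 bases. The shCtrl peaks of 485, which runs 509 bases across the end of the coding sequence, and of 80.2 shared no base with a shNAT10 peak. Shown are the shCtrl peak of 1070, with the 60 bases that are also under a shNAT10 peak in capitals, and the longest CNN run of the 5′ UTR peak in shCtrl, 7 repeats, all in capitals.
DUSP6 second peak in shCtrl, chr12:89351687-89351956, minus strand, GRCh38: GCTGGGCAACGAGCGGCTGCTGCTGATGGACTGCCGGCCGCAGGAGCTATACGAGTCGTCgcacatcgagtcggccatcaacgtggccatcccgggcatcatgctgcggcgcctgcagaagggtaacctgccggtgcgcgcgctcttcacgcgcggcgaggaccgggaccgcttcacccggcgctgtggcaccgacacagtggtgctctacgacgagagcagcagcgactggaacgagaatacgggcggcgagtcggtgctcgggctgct
DUSP6 run within the first peak in shCtrl, minus strand, GRCh38: CCCCGCCCTCTCCCGCAGCTC

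Of 17 listed ERK output and feedback genes 14 were tested, with 1 called higher and 6 lower, beside a median log2 fold change of -0.11. Of all tested genes 20.8% were called higher and 21.2% lower, and neither this list nor the phosphatases below were tested against that. The ETS factor ETV5 fell by 0.59 (SE 0.07, adjusted p = 0.00098 in limma), from 14.7, 13.9 and 15.3 FPKM to 9.42, 10.1 and 9.63. DUSP5, a nuclear ERK phosphatase, fell by 0.62 (SE 0.10, adjusted p = 0.0038 in limma), and PHLDA1 rose by 0.35 (SE 0.06, adjusted p = 0.0033). CCND1, which this list shares with the cyclin D axis, went from 165.2, 159.4 and 162.4 FPKM to 67.6, 67.0 and 69.0. Among the 10 other dual-specificity MAP kinase phosphatases 8 were tested, with 1 called higher, 5 lower and a median of -0.45. DUSP4 and DUSP5 are also among the ERK output and feedback genes, so the fall of DUSP5 is counted in both lists. The count of 5 fell to 3 without control replicate 1 and to 2 without control replicate 2 or 3. With any 1 control library left out, DUSP2 and DUSP10 no longer passed the filter and were not tested. DUSP9, an ERK phosphatase, went from 5.59, 7.74 and 5.47 to 1.56, 2.05 and 1.51 FPKM (log2 -1.81, SE 0.18, adjusted p = 0.00043 in limma). DUSP2 and DUSP10 fell by 1.54 (SE 0.35) and 0.93 (SE 0.20), and DUSP16 rose by 0.54 (SE 0.13). DUSP2 and DUSP10 reached 1 FPKM in the 3 shCtrl libraries only. They passed the filter through that group alone, which favours a lower call, and DUSP2 had 6 to 17 reads per shNAT10 library. DUSP4 had 7 to 18 reads per library and was not tested.

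PIK3CA (ENSG00000121879, chr3:179148114-179240093, plus strand), the catalytic subunit of PI3K alpha, was at 8.58, 5.37 and 7.53 FPKM in shCtrl and at 6.47, 5.81 and 6.82 FPKM in shNAT10. As for BRAF, the control libraries enclosed the knockdown libraries, with replicate 1 the highest and replicate 2 the lowest. The log2 fold change was -0.14 (SE 0.17, 95% interval -0.55 to 0.26, adjusted p = 0.53 in limma, exact permutation p = 0.5). Without control replicate 2 it was -0.34 (adjusted p = 0.021 in limma), and with the length and GC correction -0.34 (adjusted p = 0.0054). Its transcript holds 34.8% GC, the lowest of the 9, and 35.8% of its exon bases are shared on the opposite strand with KCNMB3.

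As on SMAD4 and ARID1A, the shCtrl peak on PIK3CA was in the coding sequence and a shNAT10 peak in the 3′ UTR. The other genes did not share this pattern. By their midpoints, SMAD4 and MYC also had shNAT10 peaks in the coding sequence. BRAF and DUSP6 had coding and 3′ UTR peaks in both groups. The shCtrl peak (chr3:179224718-179226038, 181 bases over 2 exons) had a fold enrichment of 4.18 and the shNAT10 peak (chr3:179235778-179236017) of 374. Of 20 listed genes of the PI3K, AKT and mTOR pathway 18 were tested, with 3 called higher, 4 lower and a median of 0.02. Leaving out control replicate 1 or 3 or knockdown replicate 1, 2 or 3 left 1 called lower. AKT1, a kinase downstream of PI3K, rose by 0.92 (SE 0.07, adjusted p = 0.00018 in limma), and MTOR by 0.45 (SE 0.14). AKT1 went from 11.6, 12.3 and 11.2 FPKM to 23.2, 21.9 and 21.6. The regulatory subunit PIK3R3 fell by 1.00 (SE 0.08, adjusted p = 0.00023 in limma), and the factors FOXO1 and FOXO3, which AKT keeps out of the nucleus, fell by 0.57 (SE 0.17) and 0.44 (SE 0.14). PIK3CA's pattern was most like that of MXD1 (r = 0.97), at 4.18, 3.27 and 3.99 FPKM in shCtrl and 3.56, 3.50 and 3.58 in shNAT10.

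**Figure D4:**
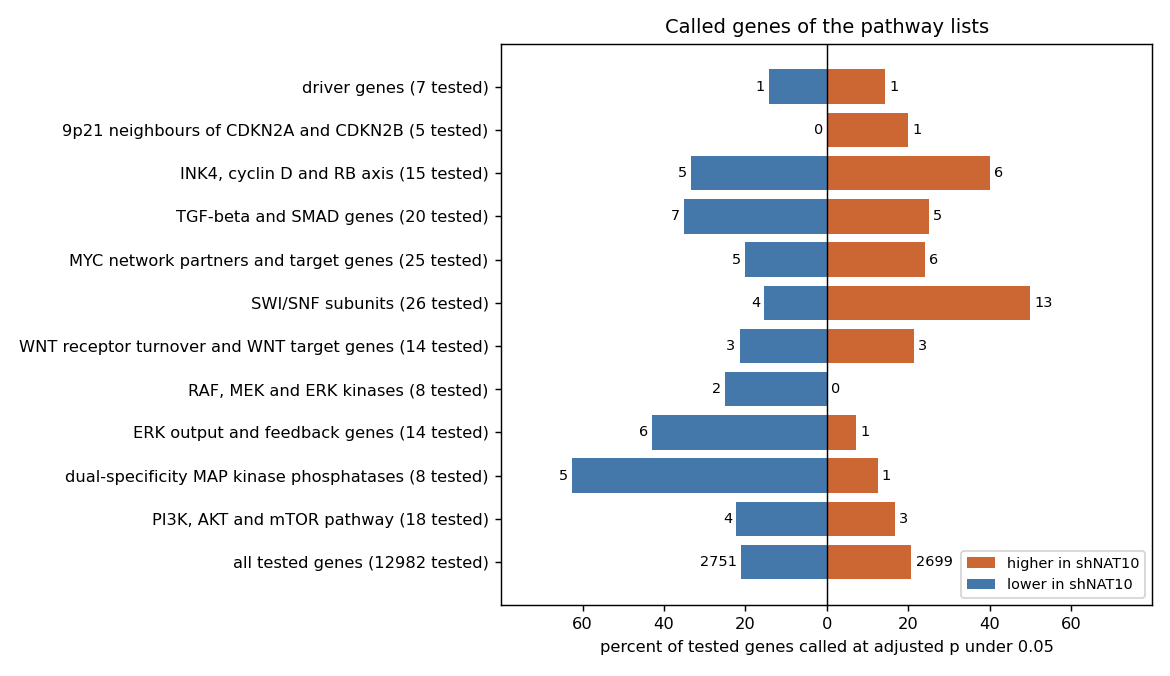
Percent of tested genes (horizontal axis) that limma called higher (orange, right) or lower (blue, left) in shNAT10 at an adjusted p under 0.05, for the driver genes, 10 lists of genes around them and all tested genes, with the number of called genes at each bar. Of the SWI/SNF subunits 13 of 26 were called higher, and of the dual-specificity phosphatases 5 of 8 lower, without a test of the order of the lists. DUSP2 and DUSP10, among these 5, passed the filter through shCtrl alone.

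The peaks of the 9 genes were last compared as a set. Of the 14 shCtrl peaks 3, and of the 11 shNAT10 peaks 2, shared at least 1 base with a peak of the other group on the same gene, all on DUSP6. In the whole lists these shares were 25.5% of 16892 and 27.2% of 15813 peaks. With a reciprocal overlap of at least 50% of both peaks, 1 and 1 remained. By their midpoints the shCtrl peaks fell in the coding sequence for 8, in the 3′ UTR for 4 and in the 5′ UTR for 2, and the shNAT10 peaks for 5, 5 and 1. Of the 13960 shCtrl and 12937 shNAT10 peaks of all genes with a midpoint on a coding transcript, 57.4% and 57.3% lay in the coding sequence. The 3′ UTR held 37.1% and 36.9% of them. Of the 7 tested driver genes, 6 had a peak in both groups, where 33.7% of all tested genes did. The peak caller's lists give no replicate, so none of these differences could be tested.

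**Figure D5:**
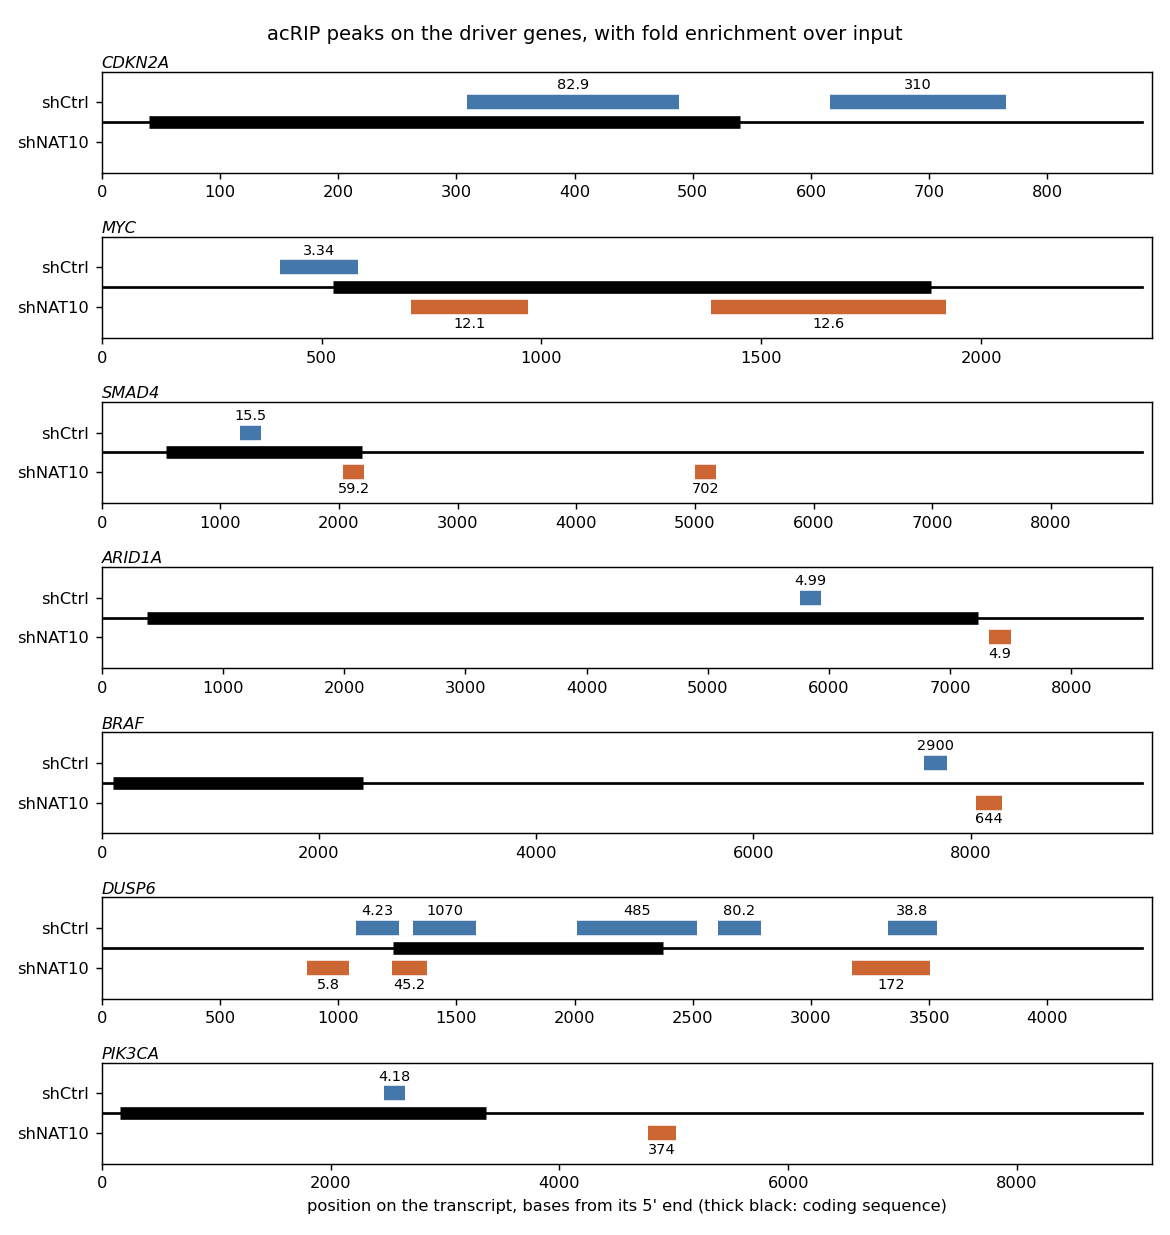
Position of the acRIP peaks on 1 coding transcript of each of the 7 driver genes with a peak (horizontal axis, bases from the 5′ end; thin black line, transcript; thick black line, coding sequence), shCtrl above in blue and shNAT10 below in orange, with the fold enrichment beside each peak. Only DUSP6 has peaks that overlap between the groups. On SMAD4, ARID1A and PIK3CA the shCtrl peak is in the coding sequence while a shNAT10 peak is in the 3′ UTR. SMAD4 and MYC also have shNAT10 peaks with midpoints in the coding sequence. The 3 BRAF peaks that fit on no single coding transcript are not drawn.

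The peak sequences were searched on the RNA strand for CNNCNNCNNCNN, a C followed by any 2 bases, 4 times in a row. Of the 22 peaks of the driver genes that lie on 1 coding transcript, 12 held it, 6 of 12 in shCtrl and 6 of 10 in shNAT10. It was present in 49.0% of all shCtrl and 49.4% of all shNAT10 peaks of 150 to 300 bases, and in 49.3% of windows of 210.0 bases, the median length of those peaks, along the longest coding transcripts of tested genes. The 22 driver peaks had no such limit on length, and peaks of 535, 509 and 330 bases were among them. The longest runs were those of ARID1A (9 repeats) and DUSP6 (7 repeats) printed above. A match of these letters is a description of the sequence, and the shCtrl peaks on SMAD4, ARID1A and PIK3CA, with 3 repeats each, did not hold the pattern.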

How the data were processed

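RNA-seq (3 libraries per group) and acRIP-seq (3 IP and 3 input libraries per group) of PANC-1 cells were used, with every sample placed in its group by its label. The authors deposited FPKM per gene, and the submitters' processing notes name HISAT2, HTSeq 0.11.0 and DESeq2 1.22.2 with GRCh38. For each group the authors deposited 1 peak list with a fold enrichment (ratio of IP over input) and a p-value per peak. The p-values were deposited also as log10 values, which served only to rank peaks. The peak caller is not given in the sources used here.

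The 9 genes, the lists of genes around them and the tests were chosen with earlier results of these data known. The 12982 genes that reached 1 FPKM in 3 or more libraries entered limma 3.58.1 (R 4.3.3) as log2(FPKM + 0.1). Its trend option was on, and p-values were adjusted by Benjamini-Hochberg over all 12982. The pseudocount makes fold changes of low genes smaller than they are. Calls needed an adjusted p under 0.05. Single genes were also given an exact two-sided permutation test in SciPy 1.17.1 under Python 3.11.15. Whole reads were recovered from the FPKM with transcript lengths of GENCODE v29, which holds 58039 of the 58302 genes; 99.9% of values above 0 lay within 0.05 of a whole read. With 200 of 12982 genes changed by 1 on the log2 scale in simulated data, 149 were called, with 4 false calls.

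Peaks were counted as overlapping at 1 shared base on the same gene and strand. Their coordinates count from 0 and were written from 1. Sequences were read from the GENCODE v29 transcripts. Named were the 9 genes, NAT10, the neighbours on 9p21, of each list the called genes with at most the 3 largest rises and 3 largest falls, and for each tested gene of the 9 the listed gene most like it over the 6 libraries; CDK4, MAP2K1 and DUSP4 were chosen after their values were seen, and some items that these rules name are not reported here. Alternatives were TPM, quantile or median scaling, a pseudocount of 1, no filter or a minimum of 5 FPKM, a fit blocked on replicate number, limma without its trend, voom on the recovered reads, each library left out in turn and, chosen after seeing the data, values with length and GC effects removed. For peaks they were a reciprocal overlap of at least 50%, the 50% with the highest fold enrichment or the lowest p-values, and a fold enrichment of at least 10.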

Additional observations from a re-analysis of the deposited data

How the results depend on the processing

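DUSP6 and NAT10 were called lower in all alternatives that tested them (log2 fold changes of -1.02 to -0.65 and -1.88 to -1.74), and RNF43 in none. ARID1A kept its direction in all 16 alternatives and its call in 11, with adjusted p in limma from 0.0023 to 0.18. Without a filter on expression ARID1A was at 0.47 (adjusted p = 0.18), so 0 driver genes were called higher. Leaving out 1 library gave ARID1A 0.34 to 0.59, MYC -0.21 to -0.14, SMAD4 -0.23 to -0.16, BRAF -0.33 to 0.064, PIK3CA -0.34 to -0.0023, RNF43 0.22 to 0.43, DUSP6 -0.99 to -0.87 and NAT10 -1.88 to -1.79. BRAF was reversed, at 0.064, without shCtrl replicate 1. Leaving out 1 library gave 0 to 1 driver genes called higher and 1 to 3 lower, the 3 without shCtrl replicate 2, and the 0 without shCtrl replicate 3 or any shNAT10 library. Quantile normalization called MYC (-0.18) besides DUSP6, 2 lower. A minimum of 5 FPKM removed DUSP6, SMAD4, RNF43 and BRAF from the test, leaving 0 lower. The correction for transcript length and GC content called 4 lower, adding SMAD4 (-0.41), BRAF (-0.34) and PIK3CA (-0.34). The cause of these differences was not tested.

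Among the 151 tested genes of the pathway lists, 39 were called higher and 39 lower, against 23 and 22 without a filter, and 24 to 47 and 23 to 47 without 1 library. TPM moved the median of all genes by 0.11 on the log2 scale and the share of higher calls from 49.5% to 61.8%; relative to that shift the driver genes kept their directions.

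With the replicate number as a block, ARID1A (0.47, adjusted p = 0.017 in limma) and DUSP6 (-0.94, adjusted p = 0.0086) stayed called and no other driver gene was added, with 35 list genes higher and 34 lower. Same-numbered libraries of the groups deviated with correlations of -0.04, 0.06 and 0.11, and not every library correlated best with its own number, so the numbers were not taken as pairs.

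For peaks, the reciprocal overlap of at least 50% left 1 overlapping peak in each group. The 50% with the highest fold enrichment left 7 peaks on 3 genes in shCtrl and 7 on 4 in shNAT10, with 1 overlapping in each. The 50% with the lowest p-values left 3 on 2 genes and 5 on 5, with 0 overlapping, and a fold enrichment of at least 10 left 9 on 4 genes in shCtrl and 9 on 5 in shNAT10, so the larger numbers in shCtrl (14 on 7 against 11 on 6) were not kept under these limits.

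With 3 libraries per group, no permutation p under 0.1 was possible, and RNF43 (110 to 195 reads per library) and DUSP6 (101 to 310) have counting error as part of their spread.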
